A study of Saccharomyces cerevisiae with 6 samples.

Results

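The proteasome genes of budding yeast and their regulator RPN4 were compared between 2 strains that express different forms of Cit1, the citrate synthase of mitochondria. The set holds 35 genes, all of which were found by name among the 6416 rows of the deposited table. They are 33 subunit genes, with 9 of the lid, 10 of the base and 14 of the core particle, the maturation factor gene UMP1 and RPN4. Both strains are Saccharomyces cerevisiae BY4741, a laboratory strain of mating type a with auxotrophic deletions, grown on galactose as the sole carbon source in synthetic complete medium. One strain expresses NdeltaCit1-DS/AA and the other NdeltaCit1-DS/AA-H/G, shortened here to DS/AA and to DS/AA-H/G, and each was sequenced in 3 libraries, numbered 1 to 3 and 4 to 6. The labels do not spell out what Ndelta, DS/AA and H/G change in the protein, which promoter drives the construct, or whether the libraries of a strain came from separate cultures, and p-values here therefore reflect only library-to-library spread, which may be technical.

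The proteasome degrades proteins marked with ubiquitin. Its core particle is a barrel of alpha rings, which gate entry, and beta rings, which carry the proteolytic sites. The regulatory particle that caps it has a base, whose ATPase ring unfolds substrates, and a lid, which removes ubiquitin. In yeast the transcription factor Rpn4 binds a short element, PACE, upstream of most subunit genes, and Rpn4 is itself degraded rapidly by the proteasome, so that the supply of subunits is tied to the demand for degradation. RPN4 transcription is in turn known to respond to Hsf1, Yap1, Pdr1 and Pdr3.

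The PACE element (GGTGGCAAA, searched on both strands from 250 bases before to 50 bases after the start codon) was present in 27 of the 35 windows, or 77.1%, against 72 of all 6007 coding gene windows of the R64 genome, or 1.2%. The 72 include the 27, and also 6 genes that face a subunit gene and share its site. Since the element is already known upstream of most subunit genes, its share among them is not a result of these data. Each of the 27 was a subunit gene and had 1 match. The match centres lay 80 to 179 bases before the start codon, with a median of 116, and 19 of the matches read on the strand of the gene. The 6 subunit genes without an exact match, RPN8, SEM1, RPN10, RPN13, PRE5 and PUP1, each had a version with 1 mismatch, as did 7.56% of all windows. RPN4 and UMP1 had neither. The sites below belong to the subunits with the most negative and the least negative (or positive) change in their part of the complex, and are shown to place the element beside the expression values that follow. They were read from the RefSeq R64 genome on the strand of each gene, with the PACE letters in capitals; RPN10, the non-ATPase base subunit with the most negative change, has no exact site.
RPN3, chrV:196843-196871, plus strand: acgaaaaacaTTTGCCACCcaagaaagag
RPN5, chrIV:190776-190804, plus strand: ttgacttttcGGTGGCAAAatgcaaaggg
RPT6, chrVII:411352-411380, minus strand: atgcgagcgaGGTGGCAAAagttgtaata
RPT1, chrXI:174048-174076, plus strand: attaccgaatTTTGCCACCcgaaaactaa
RPN1, chrVIII:164838-164866, minus strand: tgtgttttacGGTGGCAAAaggcgagcac
PRE9, chrVII:761223-761251, plus strand: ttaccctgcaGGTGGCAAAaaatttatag
PUP2, chrVII:999226-999254, minus strand: aaccaagaccGGTGGCAAAagagtaacct
PRE1, chrV:177683-177711, plus strand: aaatctttacGGTGGCAAAaaataaagaa
PRE7, chrII:141150-141178, plus strand: aaactcaaagGGTGGCAAAaacaagcggt

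Levels are scaled counts, the estimated read counts that the authors divided by 1 factor per library. Each change is the mean log2(scaled count + 1) of DS/AA less that of DS/AA-H/G, with its standard error (SE), and a gene is called where limma's Benjamini-Hochberg adjusted p over the 6197 tested genes is under 0.05. All 35 genes passed the filter on low values. The libraries held an inferred 30277566 to 32702564 reads, from each library total divided by its commonest value near 1. The transcript counted as CIT1, which does not separate chromosomal CIT1 from a construct, took 1.64% to 1.79% of the signal in DS/AA, against 3.76% to 3.79% in DS/AA-H/G. The strains therefore differ in the amount of this transcript as well as in the form expressed, and the effects of these differences cannot be told apart. Of the genes that mark mating type a, STE2 and BAR1 were abundant, with 5416 to 17474 scaled counts across the libraries, while MFA1 and MFA2 were near 0, with 0.94 to 16.3. STE2 and BAR1 fell in DS/AA, with log2 changes of -0.62 and -0.71. The alpha-type genes STE3 and SAG1 rose there, with log2 changes of 0.31 and 0.25, although STE3 was not called under quantile normalization. STE3 had 451 to 525 scaled counts in DS/AA, against 375 to 402 in DS/AA-H/G. SAG1 had 1511 to 1567 in DS/AA, against 1233 to 1375 in DS/AA-H/G. The other alpha-type genes, MF(ALPHA)1 and MF(ALPHA)2, had at most 76.5 and were not called. The part of these differences in the results that follow was not tested. The galactose gene GAL1 averaged 364648 ± 16800 scaled counts in DS/AA, against 403191 ± 9390 in DS/AA-H/G (n = 3 each, SD). It fell, with a log2 change of -0.15 (limma adjusted p = 0.00572), as did GAL7, at -0.21 (limma adjusted p = 0.000649). GAL10 and GAL2, at -0.07 and -0.23, were not called. Under quantile normalization GAL1 was not called and GAL2 was, at -0.28 (limma adjusted p = 5.69e-05). That setting assigns values by rank, which largely fixes the outcome for very abundant transcripts. CIT1, at -1.21 as deposited, was at 0.0 under it. It therefore cannot decide whether GAL1 or GAL2 differed.

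Subunit transcripts were slightly less abundant in DS/AA than in DS/AA-H/G, while the RPN4 transcript was slightly more abundant. Of the 33 subunit genes 20 fell and 0 rose, and 0 were above 0 with an unadjusted limma p under 0.05 or higher in the authors' deposited table. That table has a q under 0.05 for 15 of the 35 genes lower and 1 higher, where 19.8% of tested genes are lower and 23.0% higher. Of all 35 genes, 57.1% fell, against 19.7% of all tested genes, and RPN4 alone rose, where 22.1% of tested genes rose. The median change of the subunits was -0.10 on the log2 scale, or 0.931-fold, with a range of -0.20 to 0.04, beside a median of 0.01 for all tested genes. In 32 of the 33 subunits the change was below 0, against 3009 of all 6197 tested genes. Of the 32, RPN5, RPT1, PUP2 and PRE3, none of them called, were above 0 with equal column totals. In bulk RNA a lower transcript level per cell and a smaller share of cells that express it cannot be told apart. The changes are small: the largest, of RPT6, was 0.87-fold. Only 6 of the 20 calls held under all 15 alternative settings described below.

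**Figure D1:**
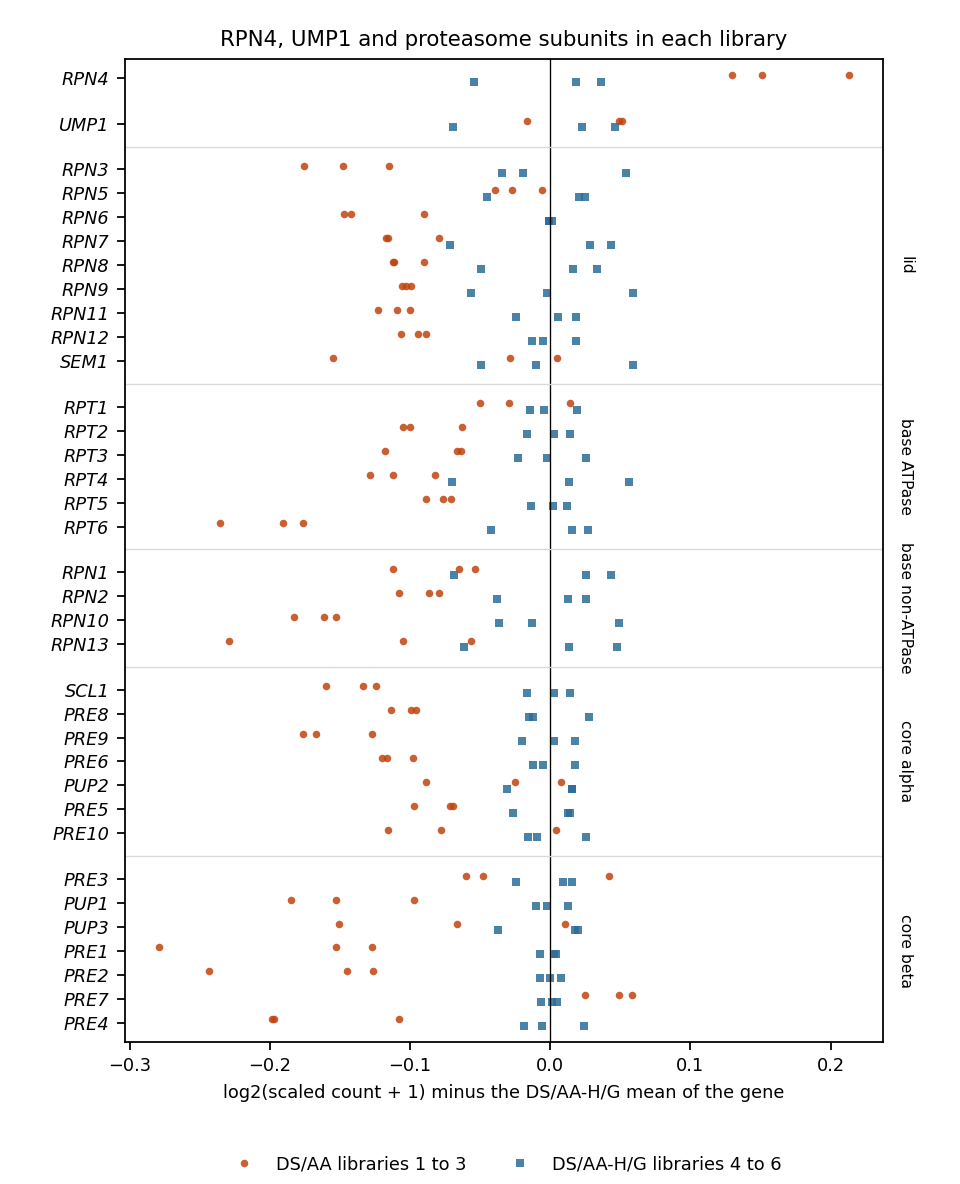
Level of each of the 35 genes in each library, as log2(scaled count + 1) minus the mean of the gene in DS/AA-H/G; circles are the 3 DS/AA libraries and squares the 3 DS/AA-H/G libraries. In RPN4 the DS/AA circles lie to the right of the squares, as for 27.8% of tested genes. In 23 subunits all of them lie to the left, as for 25.0% of tested genes.

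RPN4 (YDL020C, chromosome IV, 415113 to 416708, minus strand), the transcription factor gene of the set, had 3524, 3376 and 3326 scaled counts in DS/AA libraries 1 to 3, against 3118, 3079 and 2927 in DS/AA-H/G libraries 4 to 6. Every DS/AA library was above every DS/AA-H/G library, as for 27.8% of tested genes. The change was 0.16 ± 0.04 (SE), or 1.12-fold with a 95% interval of 1.05 to 1.19, and the limma adjusted p was 0.00692. An exact two-sided permutation test over the libraries gave p = 0.1, the smallest that 3 against 3 allows. RPN4 was called under all 15 alternative settings, with changes of 0.13 to 0.22.

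The upstream region of RPN4 was searched for the elements of its known activators over the 600 bases before the start codon, a length chosen after the shorter window had been searched. It held 1 Yap1 element (TTACTAA), which 13.7% of all such regions hold, and 2 heat shock elements (TTCNNGAA), which 25.1% hold. The Pdr1 and Pdr3 element was searched only as the exact letters TCCGCGGA. That form was not in this region and was in 0.749% of all regions. Variants of the element were not searched, so whether RPN4 holds one is not known from this search. The Yap1 element and the upstream heat shock element lie next to each other and are shown for that reason, with the element in capitals; neither match is evidence of binding here.
RPN4, Yap1 element, chrIV:417066-417092, minus strand: gtgatcgctaTTACTAAtagccgttta
RPN4, heat shock element, chrIV:417039-417066, minus strand: acagtgatggTTCTAGAAagttccgttt

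UMP1 (YBR173C, chromosome II), whose product is a short-lived chaperone that is enclosed in the maturing core particle and degraded by it, had 2041, 2136 and 2140.1 scaled counts in DS/AA libraries 1 to 3, against 1968, 2098 and 2132 in DS/AA-H/G libraries 4 to 6. The libraries of the strains overlapped. The change was 0.03 ± 0.04 (SE), with a 95% interval of 0.953-fold to 1.09-fold, and was not called (limma adjusted p = 0.657).

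In the lid, 7 of the 9 genes fell, against 19.7% of all tested genes. All 9 changes were below 0, with a median of -0.10. RPN3 (YER021W), a structural subunit, changed most. It had 8479.9, 8846 and 8646 scaled counts in DS/AA libraries 1 to 3, against 9946, 9452 and 9354 in DS/AA-H/G libraries 4 to 6, with no overlap. Its change was -0.15 ± 0.04 (SE), or 0.904-fold (limma adjusted p = 0.00688). RPN11, the metalloprotease gene whose product cuts ubiquitin from substrates, averaged 4814.5 ± 38.3 in DS/AA, against 5199 ± 79.0 in DS/AA-H/G (n = 3 each, SD; log2 change -0.11, limma adjusted p = 0.0198). RPN8, which encodes the catalytically inactive partner of Rpn11, changed by -0.10.

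The other lid genes that fell were RPN6 at -0.13, RPN7, RPN9 and RPN12 each at -0.10; their products, with Rpn3 and Rpn5, form the horseshoe that holds the lid together. RPN7 and RPN9 were at the edge of the threshold, with limma adjusted p-values of 0.0498 and 0.0494. SEM1, which encodes a small acidic subunit, stood at -0.06 and was not called (limma adjusted p = 0.44), but was called under quantile normalization, at -0.16. RPN5 was nearest to no difference in the lid. It had 9594, 9514 and 9734.5 scaled counts in DS/AA libraries 1 to 3, against 9913, 9943 and 9475.5 in DS/AA-H/G libraries 4 to 6. Library 6 was below all 3 DS/AA libraries, so the strains overlapped, and the change of -0.02, with a 95% interval of 0.934-fold to 1.04-fold, was not called (limma adjusted p = 0.608).

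In the base, 5 of the 10 genes fell, against 19.7% of all tested genes. All 10 changes were below 0, with a median of -0.09. Of the 6 ATPase genes, RPT2, RPT4 and RPT6 fell and RPT1, RPT3 and RPT5 were not called. RPT6 (YGL048C, chromosome VII, 410069 to 411286) showed the largest change of the 35 genes. It had 7517, 7834 and 7755 scaled counts in DS/AA libraries 1 to 3, against 9016, 8596 and 8948 in DS/AA-H/G libraries 4 to 6. The groups were well apart, and the change was -0.20 ± 0.04 (SE), or 0.87-fold with a 95% interval of 0.825 to 0.918 (limma adjusted p = 0.000708).

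RPT1, in the same ATPase ring, had 12231, 12784 and 12408 scaled counts in DS/AA libraries 1 to 3, against 12622, 12832.5 and 12534 in DS/AA-H/G libraries 4 to 6. These overlapped, and the change of -0.02 was not called (95% interval 0.938-fold to 1.03-fold, limma adjusted p = 0.626). RPT4 changed by -0.11 and RPT2 by -0.09. RPT3 and RPT5 stood at -0.08 each, and their limma adjusted p-values of 0.073 and 0.0659 missed the threshold. In both, every DS/AA library was below every DS/AA-H/G library, as for 25.0% of tested genes.

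The 4 other base genes encode the scaffolds Rpn1 and Rpn2 and the ubiquitin receptors Rpn10 and Rpn13. RPN10 (YHR200W) had 5449.8, 5566 and 5531 scaled counts in DS/AA libraries 1 to 3, against 6032, 6133 and 6401 in DS/AA-H/G libraries 4 to 6, again with no overlap. It fell by 0.17 on the log2 scale, to 0.891-fold (limma adjusted p = 0.00301). The second receptor gene, RPN13, stood at -0.13 but with more spread between libraries and was not called (limma adjusted p = 0.0644).

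RPN2 fell by 0.09 on the log2 scale (limma adjusted p = 0.0356), but was not called with equal column totals (limma adjusted p = 0.402). Its q in the authors' deposited table is 0.0687. RPN1, which provides docking sites for shuttle receptors, had 16090.2, 16631 and 16758 scaled counts in DS/AA libraries 1 to 3, against 17924, 17709 and 16584 in DS/AA-H/G libraries 4 to 6. Library 6 lay between the DS/AA values, and the change of -0.08 was not called (limma adjusted p = 0.116).

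In the core particle, 8 of the 14 genes fell, 4 of 7 alpha and 4 of 7 beta subunits, against 19.7% of all tested genes. Among the alpha genes, whose products form the outer rings, the median change was -0.10 and all 7 were below 0. PRE9 (YGR135W), the one core subunit gene that yeast can lose and live, changed most. It had 5515, 5672 and 5481 scaled counts in DS/AA libraries 1 to 3, against 6269.8, 6106 and 6205.5 in DS/AA-H/G libraries 4 to 6. The change was -0.16 ± 0.03 (SE), or 0.897-fold (limma adjusted p = 0.00302), with no overlap. SCL1 at -0.14, PRE6 at -0.11 and PRE8 at -0.10 also fell.

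PRE5 and PRE10 stood at -0.08 and -0.06 and were not called. PUP2, the alpha gene nearest to no difference, had 5820.2, 6224 and 6083 scaled counts in DS/AA libraries 1 to 3, against 6059, 6257 and 6256 in DS/AA-H/G libraries 4 to 6. These overlapped, and the change of -0.04 was not called (95% interval 0.922-fold to 1.03-fold, limma adjusted p = 0.484).

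The beta genes spanned the widest range of the parts of the complex, with changes of -0.19 to 0.04 and a median of -0.14. Their products include the catalytic subunits Pre3, with caspase-like activity, Pup1, with trypsin-like activity, and Pre2, with chymotrypsin-like activity. PRE2 averaged 5822 ± 251 scaled counts in DS/AA, against 6554 ± 34.1 in DS/AA-H/G (n = 3 each, SD), a log2 change of -0.17 (limma adjusted p = 0.00382). PUP1 fell by 0.14 on the log2 scale (limma adjusted p = 0.00748). PRE3 averaged 5077 ± 199 in DS/AA, against 5152.5 ± 76.4 in DS/AA-H/G, and its change of -0.02 was not called (limma adjusted p = 0.682, 95% interval 0.929-fold to 1.04-fold). Whether the catalytic genes differ from each other in their change was not tested.

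Of the 4 beta genes without a catalytic product, PRE1 and PRE4 fell and PUP3, at -0.07, and PRE7 were not called. PRE1 had 3449, 3832.5 and 3763 scaled counts in DS/AA libraries 1 to 3, against 4165, 4193 and 4197 in DS/AA-H/G libraries 4 to 6. DS/AA library 1 was the lowest of all, and the groups did not overlap (log2 change -0.19 ± 0.04 SE, limma adjusted p = 0.00479). PRE4 fell by 0.17 on the log2 scale (limma adjusted p = 0.00397).

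PRE7 was the one subunit gene with a change above 0. It had 6495, 6606 and 6649 scaled counts in DS/AA libraries 1 to 3, against 6358, 6407.5 and 6391 in DS/AA-H/G libraries 4 to 6. Every DS/AA library was above every DS/AA-H/G library, as for 27.8% of tested genes. The change of 0.04 ± 0.03 (SE) was not called (limma adjusted p = 0.306). With equal column totals it was called, at 0.10 (limma adjusted p = 0.03).

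**Figure D2:**
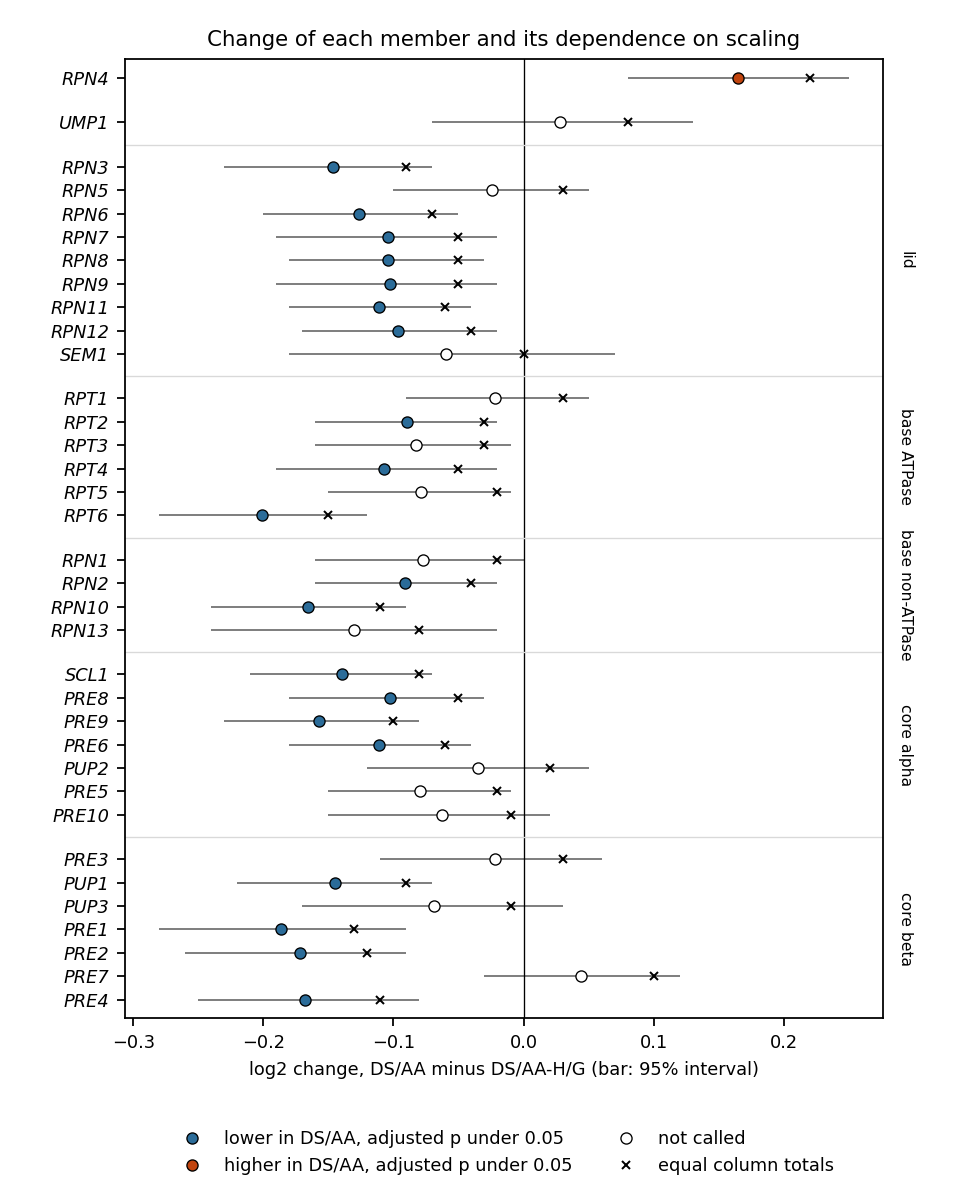
Change of each gene with its 95% interval on the log2 scale, DS/AA over DS/AA-H/G, filled where called; crosses give the change after scaling all libraries to equal totals. The subunit circles centre on -0.10 and the crosses on -0.05, while RPN4 lies at 0.16 and 0.22.

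The size of the subunit difference depended on how libraries were scaled. Relative to their mean, the scaled library totals were 0.980 to 0.983 in DS/AA, against 1.013 to 1.025 in DS/AA-H/G, and without CIT1 0.990 to 0.993 in DS/AA, against 1.003 to 1.014 in DS/AA-H/G. With equal column totals the subunit median was -0.05, 28 of 33 changes were below 0, and 6 genes fell, RPT6, RPN10, PRE9, PRE1, PRE2 and PRE4, where 12.1% of all tested genes fell and 29.8% rose; RPN4 and PRE7 rose. With CIT1 left out of the totals the median was -0.08, 10 genes fell and RPN4 rose, where 16.0% of all tested genes fell and 24.9% rose. Under quantile normalization 17 genes fell and RPN4 rose, where 28.7% of all tested genes fell and 16.7% rose; SEM1 (-0.16, limma adjusted p = 0.0463) and RPN13 (-0.17, limma adjusted p = 0.0198) gained the call. The same 6 genes, RPT6, RPN10, PRE9, PRE1, PRE2 and PRE4, fell under every one of the 15 alternatives run.

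The subunit median lay 0.11 below the median of all tested genes as deposited, and 0.04 below it under quantile normalization. Scalings by 1 factor per library shift all genes nearly alike and do not test this distance. The median level of the subunits separated the libraries by strain. Relative to the DS/AA-H/G mean it was -0.114, -0.087 and -0.105 in DS/AA libraries 1 to 3, against 0.014, 0.005 and -0.014 in DS/AA-H/G libraries 4 to 6, on the log2 scale. Within DS/AA, library 1 was the lowest for 23 of 33 subunits and library 2 the highest for 24, and within DS/AA-H/G, library 6 was the lowest for 19. Leaving out 1 library lowered the number of member genes that fell. It was 12 without DS/AA library 1, 19 without library 2 and 12 without library 3, where 20.5%, 17.2% and 17.6% of all tested genes fell in the same order. It was 10 without DS/AA-H/G library 4, 10 without library 5 and 18 without library 6, where 16.2%, 14.7% and 16.8% of all tested genes fell in the same order.

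**Figure D3:**
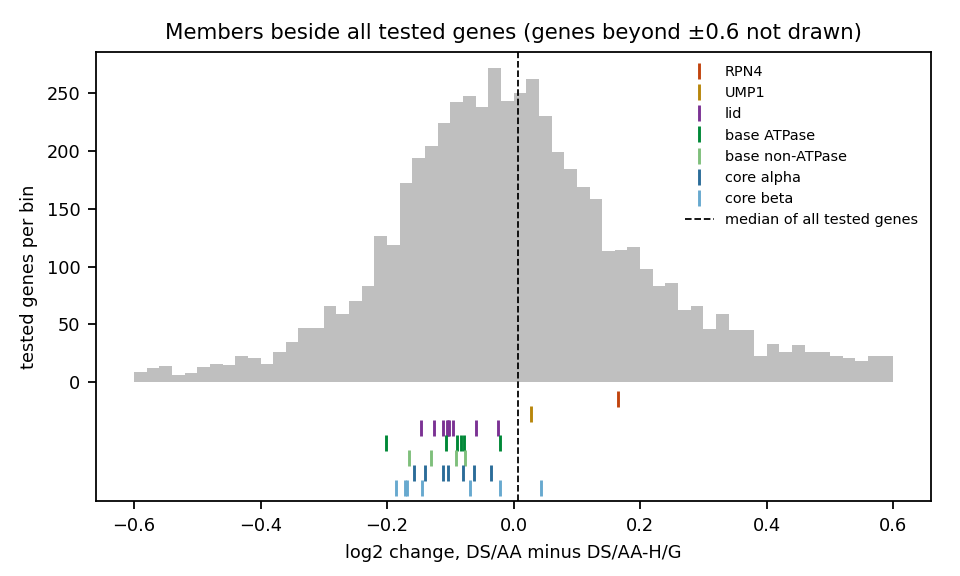
Histogram of the log2 change of the tested genes, DS/AA over DS/AA-H/G, with 1 tick per member below it by role; 670 genes beyond 0.6 in either direction are not drawn. The subunit ticks sit between -0.20 and 0.04, left of the dashed median of all tested genes except for PRE7, and RPN4 sits at 0.16.

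Summed over the 33 subunits, the libraries held 215941, 222595 and 219601 scaled counts in DS/AA, against 236782, 235393 and 231144 in DS/AA-H/G. The ratio of the strain means was 0.936. As a share of all signal the sums were 0.701%, 0.724% and 0.714% in DS/AA, against 0.745%, 0.737% and 0.720% in DS/AA-H/G, so that DS/AA library 2 exceeded DS/AA-H/G library 6. With CIT1 left out of the total the shares were 0.713%, 0.736% and 0.727% in DS/AA, against 0.775%, 0.766% and 0.748% in DS/AA-H/G, with no overlap. Every DS/AA library was below every DS/AA-H/G library in 23 of the 35 genes, against 25.0% of tested genes.

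The SD of the 33 changes was 0.0534 on the log2 scale, against a median SE of 0.0354 for a single change. The 95% interval of 29 of the 33 subunits included the subunit median, which was taken from the same genes and libraries. The interval of 24 lay wholly below 0, where 20 were called after adjustment. The intervals are not adjusted for the number of genes tested. The share of all tested genes with an interval wholly below 0 was not computed, so the 24 has no background here. Whether the subunits share the same shift was not tested.

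Levels were compared between genes as scaled counts per kb of coding length. No correction was made for untranslated regions or for an effect of length on short genes. The coding lengths of SEM1 and RPN13 are 270 and 471 nt. In both strains the subunits ranged from 3774 ± 8.23 for RPN9 to 9068 ± 109 for PRE7 in DS/AA (SD, n = 3), a 2.40-fold range, and from 4054 ± 163 for RPN9 to 9019 ± 109 for RPT1 in DS/AA-H/G, a 2.22-fold range. The alpha subunits were the most even, with a 1.35-fold range in DS/AA, against 1.32-fold in DS/AA-H/G. In the lid the range was 1.90-fold in DS/AA, against 1.80-fold in DS/AA-H/G, from RPN9 to RPN5.

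The ends of the order of levels held the same genes in both strains. PRE7, RPT1 and PRE10 were the first 3 in DS/AA, and RPT1, PRE7 and PRE10 in DS/AA-H/G, while RPN12, SEM1, RPN13 and RPN9 were the lowest 4 subunits in both. Neighbours in this order mostly did not separate, since the library values overlapped in 25 of 32 neighbouring pairs in DS/AA, against 23 of 32 in DS/AA-H/G. PRE9 stood in place 10 in DS/AA, at 7150.4 per kb, and in place 5 in DS/AA-H/G, at 7971.5 per kb. UMP1 stood at 4711 ± 125 per kb in DS/AA, against 4622.5 ± 193 in DS/AA-H/G. RPN4 was the lowest of the 35 genes in both, at 2136 ± 64.6 per kb in DS/AA, against 1906 ± 63.2 in DS/AA-H/G.

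**Figure D4:**
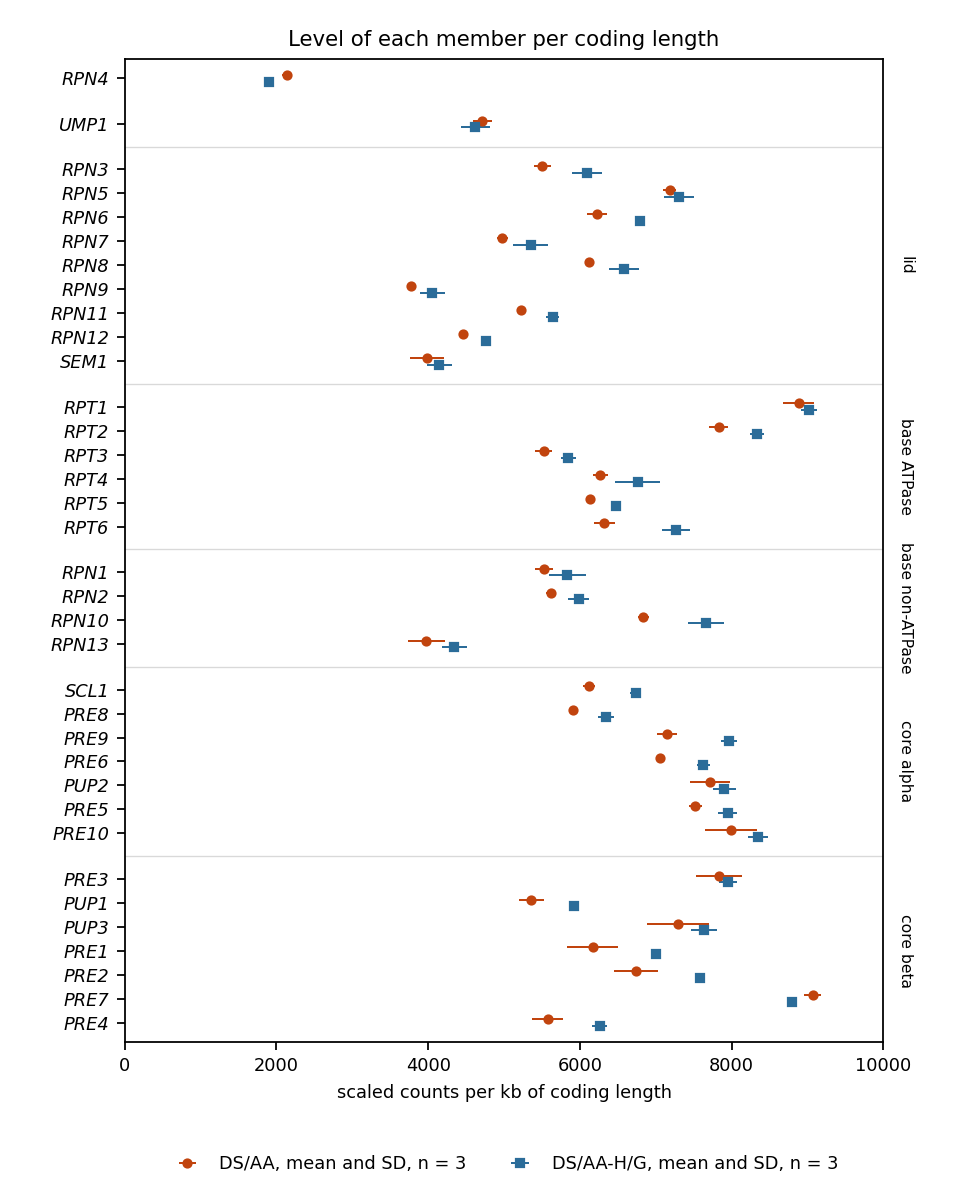
Mean level of each gene in scaled counts per kb of coding length, with the SD over 3 libraries; circles are DS/AA and squares DS/AA-H/G. Subunits lie between 3774 and 9068 per kb, and RPN4 lies below all of them.

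Subunits with and without an exact PACE match had similar median changes; the difference was not tested. Of the 27 with a match 17 fell, with a median of -0.10. Of the 6 without one 3 fell, RPN8, RPN10 and PUP1, with a median of -0.12. Of all tested genes, 19.7% fell. Each of the 6 has a version with 1 mismatch, so exact sites are set here against near-exact ones, not against none. Among the 27, RPT6 and PRE7 hold the 2 matches closest to the start codon, at 80 and 83 bases, and lie at opposite ends of the range of change.

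**Figure D5:**
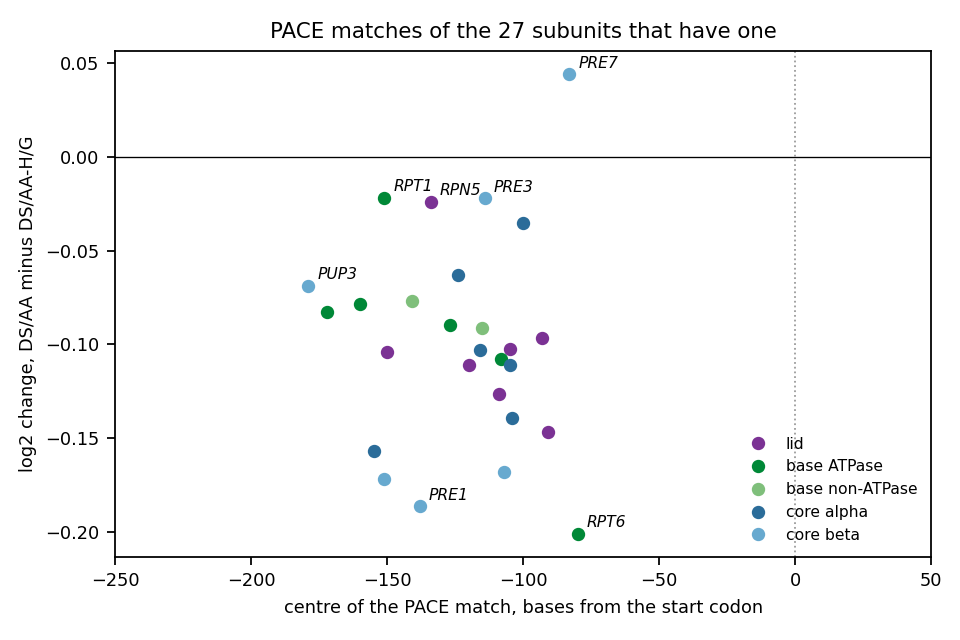
Log2 change, DS/AA over DS/AA-H/G, of the 27 subunits with a PACE match against the distance of its centre from the start codon, coloured by part of the complex. The matches lie 80 to 179 bases upstream, and RPT6 at -0.20 and PRE7 at 0.04 share nearly the same distance.

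Of 31 genes that assemble, adjust, supply or regulate the proteasome, in 5 lists, 7 fell, 6 rose and 18 were not called, with a median of 0.999-fold. The share that fell was 22.6%, close to the 19.7% of all tested genes that fell, and 22.1% of all tested genes rose, so the counts are near the background. None of the 4 core assembly chaperone genes, PBA1, ADD66, IRC25 and POC4, was called, with changes of -0.01 to 0.06. Of the 5 base assembly chaperone genes, RPN14 rose by 0.16 (limma adjusted p = 0.0109) and TMA17, a chaperone gene induced by stress, rose by 0.14 (limma adjusted p = 0.0396), while NAS2, NAS6 and HSM3 were not called. Under quantile normalization RPN14 and TMA17 were not called (limma adjusted p = 0.123 and 0.191) and NAS6 was, at -0.11 (limma adjusted p = 0.0431).

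Of 7 genes for proteins that bind the assembled proteasome, SPG5, which acts in stationary phase, rose to 3905 ± 36.1 scaled counts in DS/AA, against 3247 ± 78.8 in DS/AA-H/G (n = 3 each, SD; log2 change 0.27, limma adjusted p = 9.72e-05). FUB1 rose by 0.16, but was not called under quantile normalization (limma adjusted p = 0.151). ECM29, which encodes a protein that links core and regulatory particle, fell by 0.19, and CIC1, whose product is also a ribosome assembly factor, fell by 0.20, although CIC1 was not called with equal column totals (limma adjusted p = 0.0539). The activator gene BLM10, the deubiquitinase gene UBP6 and the ubiquitin ligase gene HUL5 were not called. HUL5, at 0.10, was called at 0.16 with equal column totals (limma adjusted p = 0.00997) and at 0.13 with CIT1 left out of the totals (limma adjusted p = 0.0304).

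Genes that bring ubiquitinated proteins to the proteasome were lower in 4 of 7 cases and higher in 0, with a median change of -0.12, where 19.7% of all tested genes fell and 22.1% rose. CDC48, the ATPase that extracts ubiquitinated proteins, averaged 31467 ± 313 scaled counts in DS/AA, against 34775 ± 760 in DS/AA-H/G (n = 3 each, SD; log2 change -0.14, limma adjusted p = 0.00221). Its cofactor gene SHP1 fell by 0.19 and the shuttle receptor genes DSK2 and RAD23 by 0.22 and 0.12, RAD23 not being called with equal column totals (limma adjusted p = 0.137). DDI1, UFD1 and NPL4 were not called, although NPL4, at 0.08, was called at 0.14 with equal column totals (limma adjusted p = 0.0218).

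Of 8 genes that act on RPN4 or on its protein, PDR3 rose by 0.21 (limma adjusted p = 0.00193) and HSF1 by 0.12 (limma adjusted p = 0.0224), both transcription factor genes. PDR3 averaged 1744 ± 39.4 scaled counts in DS/AA, against 1504 ± 31.9 in DS/AA-H/G (n = 3 each, SD). YAP1 and PDR1, at 0.06 and 0.05, were not called. Every DS/AA library was above every DS/AA-H/G library in both, as for 27.8% of tested genes. With equal column totals both were called, YAP1 at 0.12 (limma adjusted p = 0.0176) and PDR1 at 0.10 (limma adjusted p = 0.0386), and YAP1 was also called under quantile normalization, at 0.10 (limma adjusted p = 0.0343). RAD6, the ubiquitin-conjugating enzyme gene that acts with the ligase Ubr2 and its partner Mub1 on Rpn4, fell by 0.15 (limma adjusted p = 0.0193) but was not called with equal column totals (limma adjusted p = 0.109). UBR2 and MUB1, at -0.02 and -0.16, were not called, nor was UBR1. MUB1 was called under quantile normalization, at -0.21 (limma adjusted p = 0.015), and has a q of 0.0384 in the authors' deposited table.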

How the data were processed

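The tools named in the submitters' processing notes are Salmon 1.2.1, cutadapt 1.18, R 3.5.1 and bcl2fastq 2, with build R64. The settings, order and scaling method were not given in the sources used here. Values as deposited by the authors are a signal, estimated counts that the authors divided by 1 factor per library, as read from the values: 36.5% to 44.1% were whole multiples, within 0.01, of a step of 0.940 to 1.05, so no count model was applied. The authors' deposited log2 ratios and q-values were used only for comparison; the authors' deposited p-values and their deposited rank, a score, were not used.

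Genes reaching 1 in 3 or more libraries entered the test. After adding 1, log2 values were fitted by limma 3.58.1 with trend and robust settings (R 4.3.3), and p-values were adjusted by Benjamini-Hochberg over all 6197. The scripts were tested on simulated data. Members and lists were chosen with earlier results of these data known. Named with values per library are RPN4, UMP1 and the members with the lowest and highest change in each part of the complex; others named singly were chosen after their values were seen. All 35 members have the start and end of the RefSeq R64 annotation, 0 overlap another row, and 0 share 100 nt at 95% identity with another locus (BLAST+ 2.17.0). The 3 libraries per strain limit the precision, and intervals are limma's 95% intervals. Alternatives changed the scaling, pseudocount, filter, limma settings or left out 1 library.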

Additional observations from a re-analysis of the deposited data

How the results depend on the processing

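Of 525 values, the changes of the 35 genes under 15 alternatives, 430 kept their direction and side of the threshold, 80 lost the call, 6 gained it and 9 changed sign. With equal column totals, 6 of the 35 were lower and 2 higher, where 748 of all tested genes, or 12.1%, were lower and 29.8% higher. The medians were then -0.05 in the lid, -0.04 in the base, -0.05 in the alpha and -0.09 in the beta subunits. With CIT1 left out of the totals, 10 of the 35 were lower, where 16.0% of all tested genes were lower and 24.9% higher. The medians were then -0.07 in the base, -0.08 in the alpha and -0.12 in the beta subunits. Under quantile normalization the base median was -0.06. Sign changes, all in genes that were not called, were RPN5 at 0.03, RPT1 at 0.03, PUP2 at 0.02 and PRE3 at 0.03 with equal totals, RPT1 and PRE3 at 0.00 with CIT1 left out, RPT1 at 0.00 and UMP1 at -0.01 under quantile normalization, and UMP1 at -0.01 without DS/AA-H/G library 4, in a range of -0.01 to 0.05 over the libraries left out. Leaving out 1 library at a time gave 10 to 19 genes lower of the 35, where 14.7% to 20.5% of all tested genes were lower, and medians of -0.13 to -0.09 in the lid, -0.11 to -0.08 in the base, -0.11 to -0.09 in the alpha and -0.15 to -0.12 in the beta subunits. The 15 genes lower in the authors' deposited table, where 19.8% of tested genes are lower, were all also called here. The cause of these differences was not tested. No paired analysis was possible because the strains share no replicate number. The lowest value of any member in a library was 1006 scaled counts, for SEM1, and the 3 libraries per strain limit the precision.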

Other observations

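The PACE element also lies upstream of genes that encode no subunit. Of 43 other tested genes with an exact PACE match in the same window 11 fell, or 25.6%, and 7 rose, or 16.3%, with a median change of -0.03, while 19.7% of all tested genes fell and 22.1% rose. Those named next were chosen after their values were seen. Those that fell include ECM29 and CDC48 and the disulfide isomerase gene PDI1, at -0.18 (limma adjusted p = 0.0031), and those that rose include UBI4, the polyubiquitin gene, at 0.36 (limma adjusted p = 6.37e-05).

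In 6 of the 43 the match is the very site that lies upstream of a subunit gene read from the other strand. NOP14, which faces RPN5, and GCD1, which faces RPT4, fell, at -0.13 and -0.18 (limma adjusted p = 0.0467 and 0.0139). YPI1, which faces RPN11, rose by 0.18 (limma adjusted p = 0.038) while RPN11 fell by 0.11. NOP14 and YPI1 were near the threshold, and whether YPI1 and RPN11 differ in their change was not tested. ALG13, which faces RPT6, stood at 0.06 and was not called, and MPO1 and YTH1 were not called either. Over all 13 members with a tested gene facing them within 600 nt, 4 of the facing genes fell, 2 rose and 7 were not called, with a median of 0.05. Of all tested genes, 19.7% fell and 22.1% rose.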
